A study of Homo sapiens with 12 samples.

Results

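MYC, its partner MAX and 7 related genes were followed at the transcript level, by sequencing of poly(A)-selected RNA, in MOLT4, a long-established line of human T-cell acute lymphoblastic leukemia. The 9 genes were chosen by name as MYC and its dimerization partners and antagonists: MYC, MAX, MXD1, MXD3, MXD4, MXI1, MNT, MGA and MLX. All 9 are among the 23619 genes of the deposited table. All 9 were also among the 11381 genes that averaged at least 1 FPKM in the 12 libraries and were tested, FPKM being a level corrected for transcript length and library size. The cells were exposed for 6 h to 250 nM SNS-032, 250 nM THAL-SNS-032, 250 nM NVP-2, or the vehicle alone, 0.1% DMSO, with 3 libraries per group. CDK9, the kinase that releases paused RNA polymerase II, is inhibited by SNS-032 together with related kinases and by NVP-2 more selectively, while THAL-SNS-032 carries SNS-032 on a linker to a thalidomide-type ligand of cereblon, a ubiquitin ligase receptor. All groups are the same cell line with no genotype difference, so every result is for 1 line, and separate cultures within a group are not stated in the labels. The p-values therefore measure only the spread between these libraries.

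MYC is a transcription factor of the basic helix-loop-helix leucine zipper class that binds DNA only as a dimer with MAX, at the short sequence called the E-box, and promotes growth and metabolism. The MXD proteins, MXI1, MNT and MGA compete for MAX and for the same sites, and the MXD proteins, MXI1 and MNT bring SIN3 corepressor complexes, while MLX is a MAX-like partner that pairs with MLXIP, MLXIPL, MNT and some MXD proteins. In T-cell acute lymphoblastic leukemia MYC is known as a direct target of NOTCH1 signalling, and its messenger RNA is known to be short-lived.

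The sequence that MYC and its antagonists recognise with MAX, the canonical E-box CACGTG, is present in the promoters of some network genes themselves. RefSeq promoter windows on GRCh38.p14 were matched by symbol for 8 of the 9 genes, and MYC had no entry. The 250 bases before each gene start were searched for CACGTG, which reads the same on both strands and was the only motif searched. It was found for 3 genes, MXD4, MNT and MLX, against 7.73% of all 27305 genes with such a window. A match describes the letters only. The stretches below are shown because they place this motif in the network's own promoters. Each is on the gene's strand, with the E-box in capitals, at chr4:2262302-2262359 (minus strand), chr17:2401208-2401293 (minus strand) and chr17:42567010-42567095 (plus strand).
MXD4: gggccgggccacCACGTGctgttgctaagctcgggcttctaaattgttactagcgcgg
MNT: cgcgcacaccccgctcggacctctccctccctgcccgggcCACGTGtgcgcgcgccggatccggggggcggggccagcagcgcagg
MLX: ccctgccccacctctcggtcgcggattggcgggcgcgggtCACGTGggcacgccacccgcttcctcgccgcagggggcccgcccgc
The E-box began 238 bases before the gene start in MXD4, 193 in MNT and 50 in MLX. These 3 genes did not move alike on the log2 scale: under SNS-032, the differences from DMSO were -1.56 for MXD4, -1.85 for MNT and -3.76 for MLX.

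Most genes were lower with each compound as deposited, a scale on which spike-in RNAs varied little (shifts of -0.017 to 0.058 on the log2 scale). The median difference over the tested genes was -1.92 under SNS-032, -1.90 under THAL-SNS-032 and -2.54 under NVP-2, on the scale of log2(FPKM + 1) used throughout. Network genes are therefore given both as they stand and relative to that median gene, and each library was also centred on its own median as an alternative. Centring made library medians equal but left the median difference over the tested genes at 0.25 under SNS-032, 0.36 under THAL-SNS-032 and 0.42 under NVP-2. On that scale 31.1% of tested genes were called lower and 52.6% higher under SNS-032, 29.2% and 57.2% under THAL-SNS-032, and 28.1% and 59.7% under NVP-2, against DMSO. SNS-032 replicate 1 stood apart, its median lying at -2.61 from the mean of the DMSO medians, against -1.87 and -2.03 for replicates 2 and 3, and it was the lowest SNS-032 library for 9 of 9 network genes. All 16 T-lineage markers were at 2.69 FPKM or more in DMSO. Of the 5 B-cell markers, 2 were at 1 FPKM or more in DMSO, CD79A (9.07 FPKM) and CD79B (2.33 FPKM). PAX5 and MS4A1 were at 0.104 FPKM each. Of 5 myeloid markers 1 reached 1 FPKM in DMSO (1.91 FPKM), as did 1 of 4 epithelial markers (1.39 FPKM). Of 4 erythroid markers 0 did, the highest being at 0.557 FPKM. The table holds no counts, so read depth is unknown. In bulk RNA, fewer cells and less RNA per cell cannot be told apart.

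**Figure D1:**
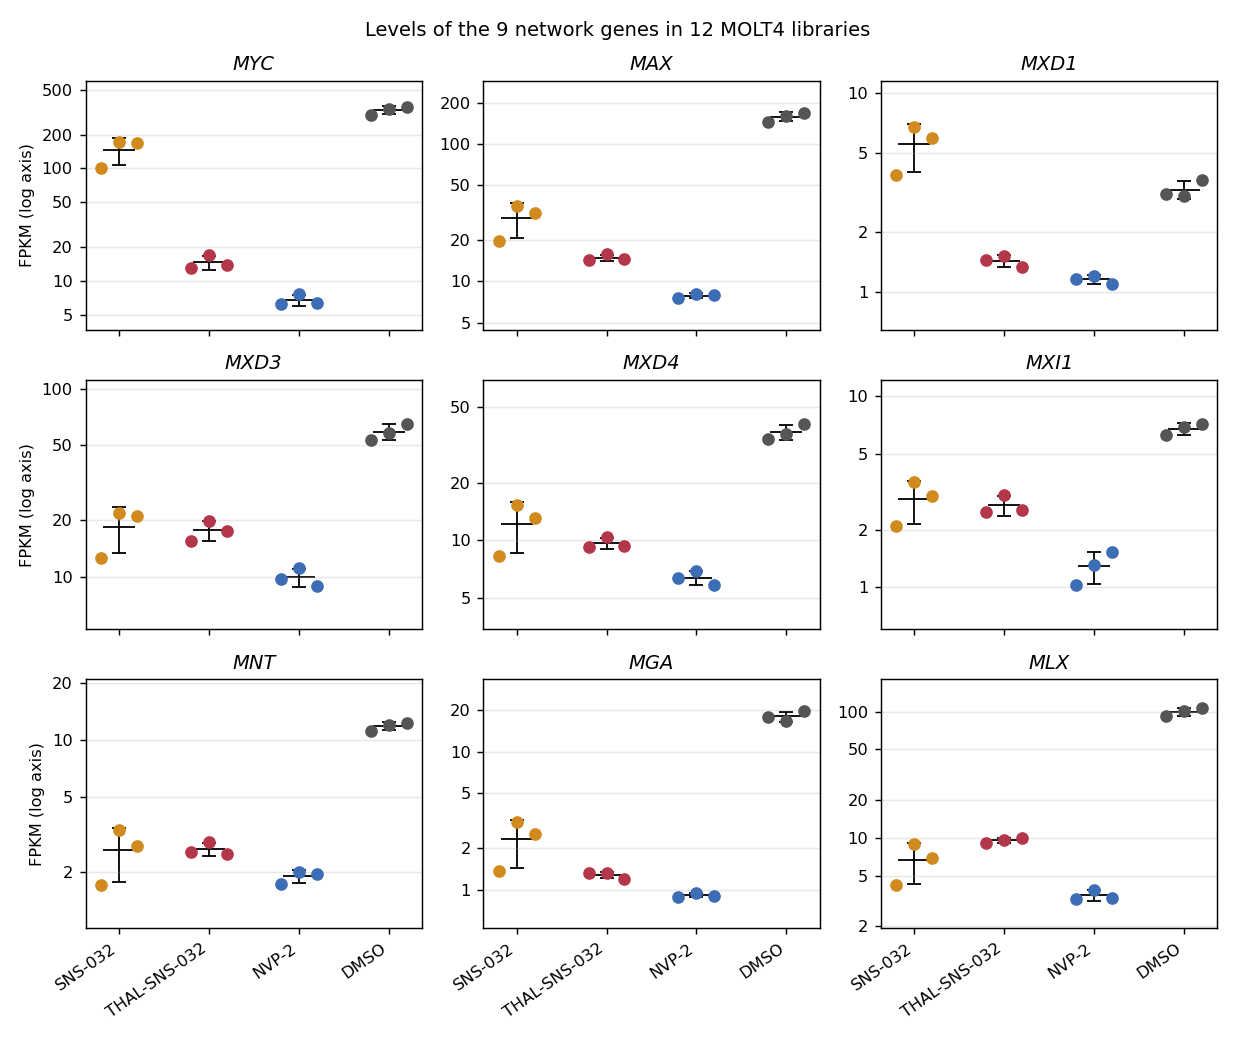
FPKM (log axis) of the 9 network genes in each library, with points for the libraries and bars for the mean and SD of 3. The 3 DMSO libraries lie above all treated libraries for every gene except MXD1, where the SNS-032 libraries (3.87 to 6.80 FPKM) lie above DMSO (3.06 to 3.68 FPKM).

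MYC, the growth-promoting factor of the network, was spread over a wide range between the compounds. It was at 100.1, 169.9 and 166.4 FPKM in the SNS-032 libraries, at 12.9, 17.0 and 13.8 FPKM under THAL-SNS-032, and at 6.21, 7.57 and 6.40 FPKM under NVP-2, against 299.7, 340.2 and 351.8 FPKM in DMSO. No 2 groups overlapped. The mean under SNS-032 was 44.0% of that in DMSO, under THAL-SNS-032 4.41% and under NVP-2 2.04%. The difference from DMSO was -1.22 under SNS-032 (SE 0.20), -4.42 under THAL-SNS-032 and -5.42 under NVP-2. Relative to the median gene these became 0.71 under SNS-032, -2.52 under THAL-SNS-032 and -2.88 under NVP-2. Under SNS-032, 81.2% of tested genes had a lower difference than MYC, and under THAL-SNS-032 and NVP-2 1.10% and 0.773% did. The fall under SNS-032 holds on the deposited scale and not on centred libraries, which put MYC at 0.96.

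MAX, the partner that MYC and most of its antagonists share, fell with all 3 compounds. Its values were 19.7, 35.5 and 31.3 FPKM under SNS-032, 14.2, 15.8 and 14.4 FPKM under THAL-SNS-032, and 7.52, 8.12 and 7.89 FPKM under NVP-2, against 145, 161 and 169 FPKM in DMSO. All treated libraries were below all DMSO libraries. The differences from DMSO were -2.46 under SNS-032, -3.33 under THAL-SNS-032 and -4.17 under NVP-2 (SE 0.19 each). Relative to the median gene they were -0.53 under SNS-032, -1.43 under THAL-SNS-032 and -1.63 under NVP-2. MAX also fell on centred libraries (-0.29 under SNS-032, -1.08 under THAL-SNS-032 and -1.21 under NVP-2).

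MLX, the MAX-like partner at the head of the network's nutrient-sensing arm, had the largest fall of the 9 genes under SNS-032. It was at 4.19, 8.90 and 6.86 FPKM under SNS-032, at 9.09, 9.49 and 9.97 FPKM under THAL-SNS-032, and at 3.24, 3.86 and 3.34 FPKM under NVP-2, against 91.3, 101 and 106 FPKM in DMSO. Its mean under SNS-032 was 6.70% of that in DMSO, a difference of -3.76 (SE 0.20), and only 2.45% of tested genes had a lower one. Under THAL-SNS-032 and NVP-2 the differences were -3.25 and -4.48, and all 3 stayed negative on centred libraries (-1.59 under SNS-032, -0.99 under THAL-SNS-032 and -1.52 under NVP-2).

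MXD1, an antagonist that pairs with MAX and represses, was the 1 network gene that was higher with any compound than in DMSO. It was at 3.87, 6.80 and 5.95 FPKM under SNS-032, at 1.45, 1.52 and 1.33 FPKM under THAL-SNS-032, and at 1.17, 1.20 and 1.09 FPKM under NVP-2, against 3.10, 3.06 and 3.68 FPKM in DMSO. All SNS-032 libraries were above all DMSO libraries, and all THAL-SNS-032 and NVP-2 libraries were below them. MXD1 rose under SNS-032 by 0.59 (SE 0.16, 95% interval 0.25 to 0.92, adjusted p = 0.00218, limma), a ratio of means of 1.69, and 98.0% of tested genes had a lower difference. The call held in each of the 21 alternatives that kept the gene, with differences of 0.34 to 0.79 apart from centring (2.76). MXD1 fell under THAL-SNS-032 and NVP-2 on the deposited scale (-0.81 and -0.99), and was at 1.45 and 1.97 on centred libraries. The positive sign of the centred value was fixed in advance with each compound. MXD1 averaged 3.28 FPKM in DMSO, and even its complete loss would be smaller on log2(FPKM + 1) than the mean fall of library medians. Centring therefore cannot show the direction of MXD1 against DMSO.

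MXD3 and MXD4, the antagonists with the highest levels here, moved close to the median gene with every compound. MXD3 was at 12.6, 21.9 and 21.0 FPKM under SNS-032, at 15.5, 19.9 and 17.6 FPKM under THAL-SNS-032, and at 9.75, 11.1 and 8.97 FPKM under NVP-2, against 53.8, 58.5 and 65.4 FPKM in DMSO. MXD4 was at 8.22, 15.4 and 13.1 FPKM under SNS-032, at 9.22, 10.4 and 9.30 FPKM under THAL-SNS-032, and at 6.30, 6.90 and 5.81 FPKM under NVP-2, against 34.0, 36.1 and 40.6 FPKM in DMSO. Both fell below all DMSO libraries with every compound. Relative to the median gene, however, MXD3 lay at 0.26 under SNS-032, 0.21 under THAL-SNS-032 and 0.079 under NVP-2, and MXD4 at 0.37 under SNS-032, 0.069 under THAL-SNS-032 and 0.17 under NVP-2. On centred libraries both genes turned positive with all 3 compounds (0.43 to 0.62), where the median gene was itself at 0.25 under SNS-032, 0.36 under THAL-SNS-032 and 0.42 under NVP-2. MXD3 overlaps PRELID1, a more abundant gene, in RefSeq, and whether strand was used in computing the values is not given in the sources used here. PRELID1 averaged 118 ± 33.5 FPKM under SNS-032, 121 ± 5.78 FPKM under THAL-SNS-032 and 69.3 ± 7.48 FPKM under NVP-2, against 318 ± 36.8 FPKM in DMSO (SD, n = 3 each), and its share in the MXD3 values was not tested.

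MXI1, a further SIN3-recruiting antagonist, fell less than the median gene on the scale of log2(FPKM + 1), which understates changes at its low levels. It averaged 2.89 ± 0.733 FPKM under SNS-032, 2.68 ± 0.319 FPKM under THAL-SNS-032 and 1.29 ± 0.252 FPKM under NVP-2, against 6.75 ± 0.468 FPKM in DMSO. The differences were -1.01 under SNS-032, -1.08 under THAL-SNS-032 and -1.77 under NVP-2. Over the alternatives they reached at lowest -1.23 under SNS-032, -1.30 under THAL-SNS-032 and -2.32 under NVP-2. Relative to the median gene the main differences were 0.91 under SNS-032, 0.83 under THAL-SNS-032 and 0.77 under NVP-2. On centred libraries they turned to 1.16 under SNS-032, 1.18 under THAL-SNS-032 and 1.20 under NVP-2. Under NVP-2 a positive centred value was fixed in advance, because MXI1 at 6.75 FPKM in DMSO could not fall as far as those library medians. MNT, the broadly expressed antagonist, averaged 2.61 ± 0.826 FPKM under SNS-032, 2.65 ± 0.216 FPKM under THAL-SNS-032 and 1.90 ± 0.146 FPKM under NVP-2, against 11.8 ± 0.556 FPKM in DMSO. Its differences were -1.85 under SNS-032, -1.81 under THAL-SNS-032 and -2.14 under NVP-2. On centred libraries these turned to 0.32 under SNS-032, 0.45 under THAL-SNS-032 and 0.82 under NVP-2, beside a median gene at 0.25, 0.36 and 0.42 under these compounds.

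MGA, a very large protein with both a T-box and a MAX-binding domain that belongs to the Polycomb complex PRC1.6, was the antagonist that fell furthest with each compound. It was at 1.36, 3.09 and 2.53 FPKM under SNS-032, at 1.32, 1.33 and 1.20 FPKM under THAL-SNS-032, and at 0.891, 0.945 and 0.898 FPKM under NVP-2, against 17.8, 16.7 and 19.7 FPKM in DMSO. The mean was 12.9% of the DMSO mean under SNS-032, 7.09% under THAL-SNS-032 and 5.04% under NVP-2. The differences were -2.55 under SNS-032, -3.06 under THAL-SNS-032 and -3.32 under NVP-2. Relative to the median gene they were -0.63 under SNS-032, -1.16 under THAL-SNS-032 and -0.78 under NVP-2. They stayed negative on centred libraries (-0.38 under SNS-032, -0.80 under THAL-SNS-032 and -0.36 under NVP-2).

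Counted together, 8 of the 9 genes were lower and 1 higher under SNS-032 than in DMSO, and 9 were lower and 0 higher under THAL-SNS-032 and under NVP-2 alike (limma, Benjamini-Hochberg adjusted over all tested genes). The background share called lower was 94.6% of tested genes under SNS-032, 94.8% under THAL-SNS-032 and 97.1% under NVP-2, so these counts are near the share of all genes. The share called higher was 1.54% under SNS-032, 1.37% under THAL-SNS-032 and 0.448% under NVP-2. All treated libraries lay below all DMSO libraries for 8 network genes under SNS-032 (94.8% of tested genes), 9 under THAL-SNS-032 (95.9%) and 9 under NVP-2 (97.8%). They lay above for 1 under SNS-032 (1.16% of tested genes), 0 under THAL-SNS-032 (1.32%) and 0 under NVP-2 (0.431%). On centred libraries the split was 3 lower and 6 higher under SNS-032 (31.1% and 52.6% of tested genes). It was 4 lower and 5 higher under THAL-SNS-032 (29.2% and 57.2%) and also under NVP-2 (28.1% and 59.7%). The higher counts include MXD1 with each compound and MXI1 under NVP-2, whose centred sign was fixed in advance by low levels in DMSO. The genes that stayed lower on both scales were MAX, MGA and MLX with each compound, joined by MYC under THAL-SNS-032 and NVP-2. The median of the 9 differences was -1.66 under SNS-032, -1.83 under THAL-SNS-032 and -2.46 under NVP-2. The 3 comparisons share the same DMSO libraries.

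**Figure D2:**
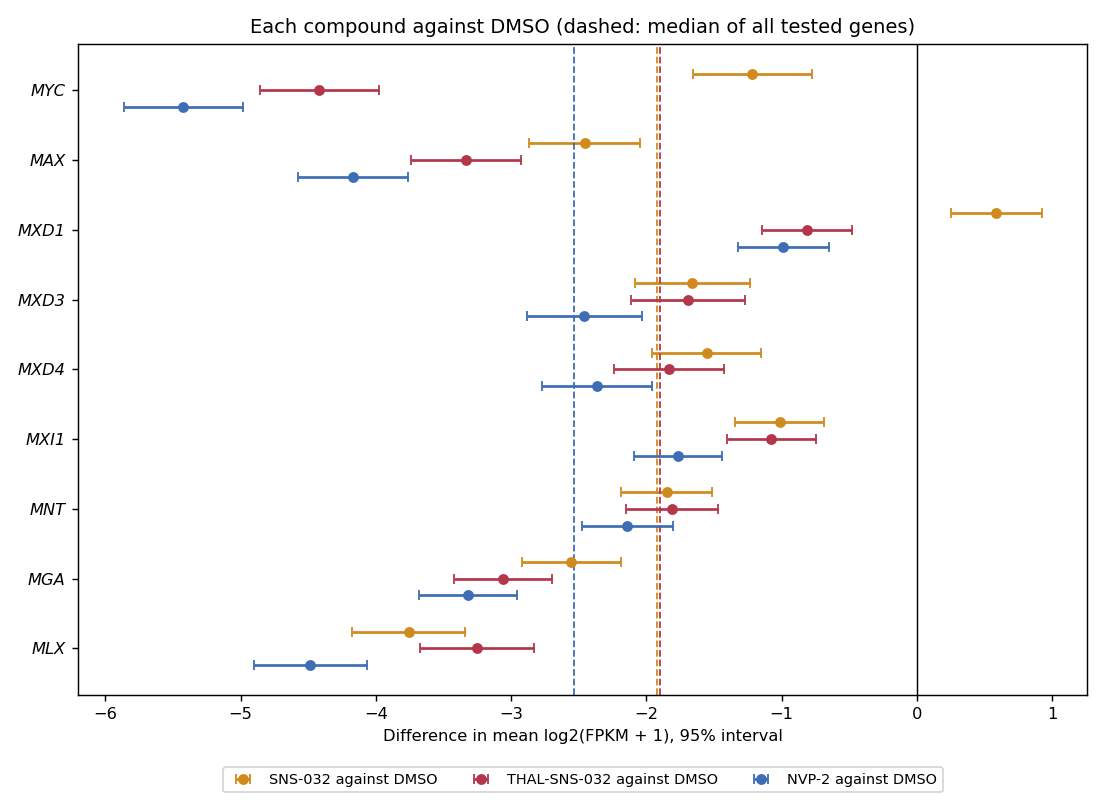
Difference in mean log2(FPKM + 1) from DMSO with its 95% interval for each of the 9 genes and 3 compounds, and dashed lines for the median of all tested genes (-1.92 under SNS-032, -1.90 under THAL-SNS-032, -2.54 under NVP-2). MXD1 under SNS-032 is the 1 point above 0 (0.59), and MYC runs over the widest range, with -1.22 under SNS-032, -4.42 under THAL-SNS-032 and -5.42 under NVP-2, the first of which turns to 0.96 on centred libraries.

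THAL-SNS-032 and SNS-032, which differ by the linker and cereblon ligand, were compared at the same dose and time. MYC under THAL-SNS-032 was at 10.0% of its level under SNS-032, a difference of -3.20 (SE 0.20, adjusted p = 1.50e-07, limma), and 0.457% of tested genes had a lower one. MAX and MXD1 were lower too, by -0.88 and -1.40, and MGA by -0.51. Thus 4 of 9 genes were lower and 0 higher, against 16.7% and 13.4% of all tested genes. The MGA call (adjusted p = 0.0356) was lost in 12 of 22 alternatives, whose adjusted p reached 0.103, among them those without SNS-032 replicate 2 (-0.34) or 3 (-0.45), any of the THAL-SNS-032 replicates (-0.52 to -0.48) or any of the NVP-2 replicates (-0.51). The other 5 genes did not pass, and their intervals are given on the scale of log2(FPKM + 1). These use a spread pooled over all groups, and SNS-032 libraries varied more than that, so the intervals may be too narrow. The SD was 27.6% of the mean for MXD3, 31.6% for MNT and 35.5% for MLX under SNS-032. Under THAL-SNS-032 it was 12.5% for MXD3, 8.14% for MNT and 4.63% for MLX. The 95% interval was -0.46 to 0.39 for MXD3, -0.39 to 0.27 for MXI1 and -0.30 to 0.38 for MNT. It was -0.68 to 0.13 for MXD4, which passed without SNS-032 replicate 1 (-0.52, adjusted p = 0.00191, limma) and shrank to -0.10 without SNS-032 replicate 2 (adjusted p = 0.65). For MLX it was 0.087 to 0.93, with all THAL-SNS-032 libraries above all SNS-032 libraries. MLX did not pass (0.51, adjusted p = 0.0645, limma) but did without SNS-032 replicate 2 (0.72, adjusted p = 0.00745) and with an equal median spike-in ratio (0.53, adjusted p = 0.0492). Without SNS-032 replicate 1 it was 0.25 (adjusted p = 0.0872, limma). The interval lay within 2-fold in FPKM + 1 for 6 of 9 genes, against 76.9% of tested genes. For genes at low levels, such as MGA, this limit allows a wider range in FPKM itself. On centred libraries 5 genes were lower and 2 higher, against 23.1% and 51.2% of tested genes, with the median gene at 0.22. On the deposited scale groups were apart for the 4 lower genes and for MLX, the 1 higher, against 15.9% of tested genes below and 25.5% above.

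THAL-SNS-032 and NVP-2 differ in the whole molecule. MYC was higher under THAL-SNS-032 than under NVP-2 by 1.01, a ratio of means of 2.16, and MLX by 1.23. MAX (0.84), MXD3 (0.77), MXI1 (0.69) and MXD4 (0.54) were higher too. Of the 9 genes, 6 were higher and 0 lower, against a background of 70.0% and 0.993%, and the median gene was itself higher by 0.64. The MXD4 call was lost without THAL-SNS-032 replicate 2 (0.49), NVP-2 replicate 1 (0.53) or NVP-2 replicate 3 (0.48). MXD1 (-0.16 to 0.51), MNT (-0.0077 to 0.67) and MGA (-0.11 to 0.62) did not pass. These 95% intervals lay within 2-fold in FPKM + 1, as did that of MXD4, so 4 of 9 did, against 46.4% of tested genes. MXD1, MNT and MGA passed when the 6 libraries of the pair alone were used (adjusted p = 0.0307 for MXD1, 0.0048 for MNT and 0.00322 for MGA, limma). MNT also passed without SNS-032 replicate 1 or 2 (0.33 each), and MGA without SNS-032 replicate 1 (0.26), whose libraries enter the pooled spread. All 9 genes had every THAL-SNS-032 library above every NVP-2 library, as did 84.7% of tested genes, while 2.49% had every library below. On centred libraries the split became 3 higher and 4 lower, against 29.4% and 38.0% of tested genes.

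Between SNS-032 and NVP-2, 8 genes were higher under SNS-032 and 0 lower, against 52.6% and 0.782% of tested genes. MYC differed by 4.21, a ratio of means of 21.6, and 99.6% of tested genes had a lower difference. MAX followed with 1.71 and MXD1 with 1.58, while MXD4, MXD3, MGA, MXI1 and MLX lay between 0.73 and 0.81. MNT did not pass (0.29, 95% interval -0.047 to 0.63) but did without SNS-032 replicate 1 (0.48), and it was 0.14 without SNS-032 replicate 2 (adjusted p = 0.467, limma). Groups were apart, under SNS-032 higher, for 8 of 9 genes and lower for 0, against 47.5% and 1.28% of tested genes. MNT was the 1 gene whose interval lay within 2-fold in FPKM + 1, against 57.5% of tested genes, and without SNS-032 replicate 2 the number was 4. Here too the pooled spread may make intervals too narrow for the more variable SNS-032 libraries. On centred libraries 3 genes stayed higher (MYC, MAX and MXD1) and MNT turned lower (-0.50), against 24.8% of tested genes higher and 58.9% lower, with the median gene at -0.31. These 3 pairs of compounds gave 27 gene comparisons, and p-values were adjusted over all tested genes within each pair.

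**Figure D3:**
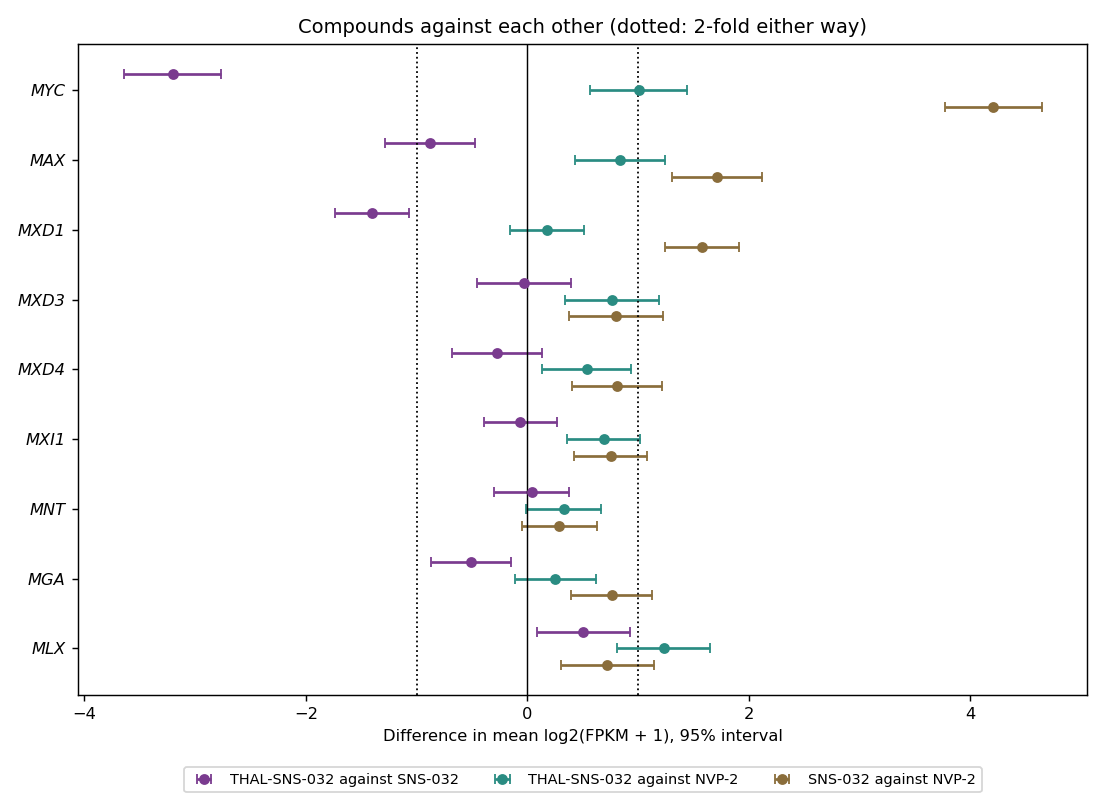
Difference in mean log2(FPKM + 1) between compounds with its 95% interval for each of the 9 genes, with dotted lines at 2-fold either way in FPKM + 1. MYC is far outside these lines for THAL-SNS-032 against SNS-032 (-3.20) and SNS-032 against NVP-2 (4.21), while MNT crosses 0 in all 3 pairs.

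Ratios within a library do not depend on how libraries were scaled to each other. The FPKM ratio of MYC to MAX was 5.09, 4.78 and 5.32 under SNS-032, 0.903, 1.08 and 0.961 under THAL-SNS-032, and 0.826, 0.933 and 0.811 under NVP-2, against 2.06, 2.11 and 2.08 in DMSO. MYC transcripts thus outnumbered MAX transcripts per length by more under SNS-032 than in DMSO, and were about level with them under the other 2 compounds. Set against the sum of the 6 antagonists (MXD1, MXD3, MXD4, MXI1, MNT and MGA), MYC stood at 3.31 ± 0.151 under SNS-032, 0.411 ± 0.0213 under THAL-SNS-032 and 0.312 ± 0.0129 under NVP-2, against 2.43 ± 0.105 in DMSO (SD, n = 3 each). The ratio of MAX to that sum was 0.654 ± 0.00658 under SNS-032, 0.420 ± 0.0172 under THAL-SNS-032 and 0.365 ± 0.0224 under NVP-2, against 1.17 ± 0.0371 in DMSO. No test was made of these ratios, which combine members. The groups did not overlap in any of the 3 ratios, except that MYC to MAX overlapped between THAL-SNS-032 and NVP-2, and SNS-032 replicate 1 did not stand apart in them.

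The make-up of the network shifted in the same way. MYC made up 64.7% ± 1.27 of the summed FPKM of the 9 genes under SNS-032, 19.6% ± 1.18 under THAL-SNS-032 and 17.0% ± 0.593 under NVP-2, against 45.6% ± 0.562 in DMSO. MXD3 made up 8.22% under SNS-032, 23.7% under THAL-SNS-032 and 25.1% under NVP-2, against 8.17% in DMSO, and it was the most abundant of the 9 under THAL-SNS-032 and NVP-2. MLX held 2.92% ± 0.345 under SNS-032, against 13.7% ± 0.0748 in DMSO. Among the 6 antagonists alone, MXD1 held 12.6% ± 0.324 of the sum under SNS-032, 4.07% ± 0.340 under THAL-SNS-032 and 5.37% ± 0.232 under NVP-2, against 2.41% ± 0.0991 in DMSO. The share of MGA was 5.17% under SNS-032, 3.65% under THAL-SNS-032 and 4.24% under NVP-2, against 13.3% in DMSO.

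**Figure D4:**
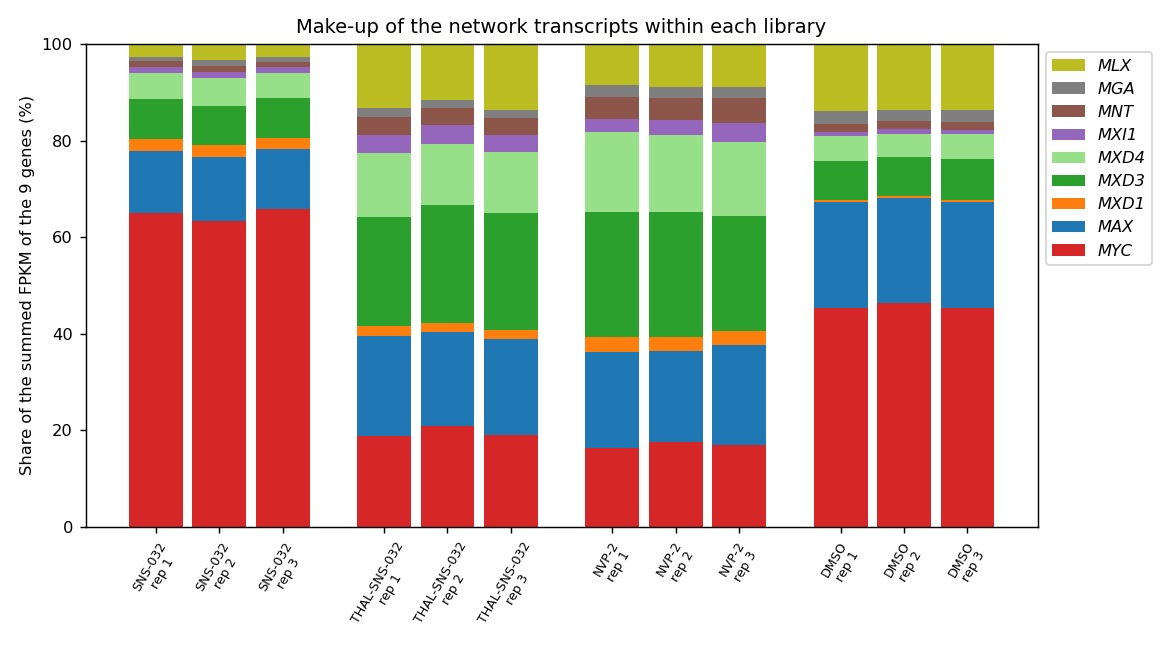
Share of each gene in the summed FPKM of the 9 genes, 1 bar per library, the 3 compounds left of DMSO. MYC takes 63.3% to 65.8% of the SNS-032 bars, 18.7% to 20.9% of the THAL-SNS-032 bars and 16.4% to 17.6% of the NVP-2 bars, against 45.2% to 46.3% of the DMSO bars.

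The order of levels differed between groups. In DMSO it ran MYC, MAX, MLX, MXD3, MXD4, MGA, MNT, MXI1 and MXD1, and no neighbours overlapped over the 3 libraries. Under SNS-032 it ran MYC, MAX, MXD3, MXD4, MLX, MXD1, MXI1, MNT and MGA in each library. Ranges across SNS-032 libraries separated only MYC from MAX and MXD1 from MXI1. Under THAL-SNS-032 MXD3 came first, and MAX and MYC behind it overlapped, as did MXD3 and MAX, MXD4 and MLX, and MXI1 and MNT. Under NVP-2 MXD3 stood clear of MAX, while MAX, MYC and MXD4 overlapped in a chain and MXI1 overlapped MXD1. MXD1, last in DMSO, was never last with a compound, and MGA was last with all 3.

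Other genes of the family were few in these cells. MYCN, the MYC paralog, was at 0.0951, 0.0868 and 0.166 FPKM under SNS-032, 0.120, 0.0656 and 0.131 FPKM under THAL-SNS-032, and 0.0728, 0.134 and 0.0727 FPKM under NVP-2, against 2.78, 2.77 and 2.87 FPKM in DMSO. It missed the filter on the mean and was not tested, although DMSO libraries were above all others. MYCL1 and MLXIPL did not pass the filter either and reached at most 0.244 and 0.112 FPKM. MLXIP, the nutrient-responsive partner of MLX, averaged 4.92 ± 1.42 FPKM under SNS-032, 4.57 ± 0.432 FPKM under THAL-SNS-032 and 3.42 ± 0.121 FPKM under NVP-2, against 16.6 ± 1.89 FPKM in DMSO. Its differences of -1.59 under SNS-032, -1.65 under THAL-SNS-032 and -1.98 under NVP-2 were smaller in size than those of MLX with each compound, which was not tested. Under NVP-2 this was fixed in advance, because MLXIP at 16.6 FPKM in DMSO could not reach the -4.48 of MLX on log2(FPKM + 1).

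Of the MYC cofactors, 20 of 20 listed genes were tested, and 19 were lower under SNS-032, 20 under THAL-SNS-032 and 20 under NVP-2, with 0 higher. These counts are near the shares of all tested genes called lower, 94.6% under SNS-032, 94.8% under THAL-SNS-032 and 97.1% under NVP-2. Their medians were -1.92 under SNS-032, -2.02 under THAL-SNS-032 and -2.85 under NVP-2, beside -1.92 under SNS-032, -1.90 under THAL-SNS-032 and -2.54 under NVP-2 for all tested genes. The acetyltransferase gene KAT5 (-4.04 under SNS-032, -4.35 under THAL-SNS-032 and -4.74 under NVP-2) and the elongation complex gene PAF1 (-3.83 under SNS-032, -3.74 under THAL-SNS-032 and -4.89 under NVP-2) fell furthest. On centred libraries the cofactors split into 7 lower and 12 higher under SNS-032, 6 and 13 under THAL-SNS-032, and 8 and 10 under NVP-2.

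All 16 corepressor genes that serve MXD proteins and MNT were lower with each compound, with medians of -1.99 under SNS-032, -2.09 under THAL-SNS-032 and -2.99 under NVP-2. Of all tested genes, 94.6% were called lower under SNS-032, 94.8% under THAL-SNS-032 and 97.1% under NVP-2. SAP30, a SIN3 complex subunit, averaged 2.29 ± 0.940 FPKM under SNS-032, 2.83 ± 0.789 FPKM under THAL-SNS-032 and 1.28 ± 0.157 FPKM under NVP-2, against 118 ± 3.27 FPKM in DMSO. The histone deacetylase HDAC1 had the highest level of the list and differed by -0.64 under SNS-032, -0.61 under THAL-SNS-032 and -1.35 under NVP-2. ING1, a SIN3-associated reader of histone methylation, differed by -2.20 between THAL-SNS-032 and SNS-032 and by 3.53 between SNS-032 and NVP-2. Centring gave 7 lower and 8 higher under SNS-032 and under THAL-SNS-032, and 7 and 7 under NVP-2.

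Genes of the MGA-containing PRC1.6 complex (14 tested) were all lower with each compound, with medians of -2.28 under SNS-032, -2.60 under THAL-SNS-032 and -2.98 under NVP-2. The share of all tested genes called lower was 94.6% under SNS-032, 94.8% under THAL-SNS-032 and 97.1% under NVP-2. E2F6, its DNA-binding subunit, differed by -2.29 under SNS-032, -3.38 under THAL-SNS-032 and -3.73 under NVP-2, and CBX3, the most abundant, by -1.89 under SNS-032, -1.58 under THAL-SNS-032 and -2.89 under NVP-2. RYBP was the 1 gene of the list that was lower under THAL-SNS-032 than under NVP-2 (-0.52), against 0.993% of all tested genes. That count was 0 without THAL-SNS-032 replicate 3 or NVP-2 replicate 2. The centred splits were 7 lower and 6 higher under SNS-032, 8 and 5 under THAL-SNS-032, and 7 and 6 under NVP-2.

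The 20 tested genes of MYC protein turnover were all lower with each compound, with medians of -1.90 under SNS-032, -2.23 under THAL-SNS-032 and -2.94 under NVP-2. Beside them, 94.6% of all tested genes were called lower under SNS-032, 94.8% under THAL-SNS-032 and 97.1% under NVP-2. PPP2CA, the phosphatase catalytic subunit that acts on MYC, averaged 156 ± 42.8 FPKM under SNS-032, 41.9 ± 4.22 FPKM under THAL-SNS-032 and 10.2 ± 1.23 FPKM under NVP-2, against 283 ± 20.3 FPKM in DMSO. The mitotic kinase genes AURKA and PLK1, whose products stabilise MYC family proteins, differed by -1.62 each between THAL-SNS-032 and SNS-032. Centring gave 7 lower and 11 higher under SNS-032, 8 and 9 under THAL-SNS-032, and 9 and 10 under NVP-2. Of the genes that control the MYC transcript, all 15 tested were lower with each compound, to be read against the same shares of all tested genes. Their medians were -1.56 under SNS-032, -1.37 under THAL-SNS-032 and -2.72 under NVP-2. PUF60, a repressor of MYC transcription, fell furthest under NVP-2 (-4.65), and NME2, the most abundant, differed by -0.81 under SNS-032, -0.66 under THAL-SNS-032 and -1.46 under NVP-2. Their centred splits were 4 lower and 10 higher under SNS-032, 4 and 10 under THAL-SNS-032, and 5 and 8 under NVP-2. PVT1, the non-coding gene next to MYC on its chromosome, averaged 4.03 ± 0.860 FPKM under SNS-032, 3.02 ± 0.638 FPKM under THAL-SNS-032 and 1.92 ± 0.285 FPKM under NVP-2, against 7.12 ± 1.03 FPKM in DMSO. Its differences of -0.70 under SNS-032, -1.02 under THAL-SNS-032 and -1.47 under NVP-2 were smaller in size than those of MYC with each compound, which was not tested. Under THAL-SNS-032 and NVP-2 this was fixed in advance, because PVT1 at 7.12 FPKM in DMSO could not fall that far on log2(FPKM + 1).

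The MYC target list holds genes of ribosome assembly, nucleotide synthesis and metabolism, and 45 of its 46 names were in the table and tested. All 45 were lower with each compound, with medians of -2.29 under SNS-032, -2.21 under THAL-SNS-032 and -3.10 under NVP-2. That count is near the share of all tested genes called lower, 94.6% under SNS-032, 94.8% under THAL-SNS-032 and 97.1% under NVP-2. The medians of all tested genes were -1.92 under SNS-032, -1.90 under THAL-SNS-032 and -2.54 under NVP-2. Of these 45 genes, 30 lay below the median gene under SNS-032, 30 under THAL-SNS-032 and 33 under NVP-2. NPM1, the nucleolar protein nucleophosmin, averaged 846 ± 236 FPKM under SNS-032, 1014 ± 78.9 FPKM under THAL-SNS-032 and 412 ± 42.3 FPKM under NVP-2, against 3548 ± 371 FPKM in DMSO. LDHA, a glycolytic enzyme gene, differed by -3.87 under SNS-032, -3.78 under THAL-SNS-032 and -6.30 under NVP-2. Between THAL-SNS-032 and SNS-032, where MYC differed 9.99-fold, 7 targets were lower, 8 higher and 30 did not pass. These counts are near the 16.7% lower and 13.4% higher of all tested genes. The target median was 0.26 beside 0.14 for all tested genes. On centred libraries 11 targets were lower and 31 higher in this pair, against 23.1% and 51.2% of tested genes. The 7 lower on the deposited scale included the ribosome assembly genes NOP16 (-3.23) and WDR43 (-2.22) and the cell cycle phosphatase gene CDC25A (-2.02). On centred libraries the targets split into 23 lower and 15 higher under SNS-032, 17 and 21 under THAL-SNS-032, and 21 and 17 under NVP-2. The shares of all tested genes lower and higher on that scale, against which these and the other lists' centred splits are to be read, were 31.1% and 52.6% under SNS-032, 29.2% and 57.2% under THAL-SNS-032, and 28.1% and 59.7% under NVP-2.

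**Figure D5:**
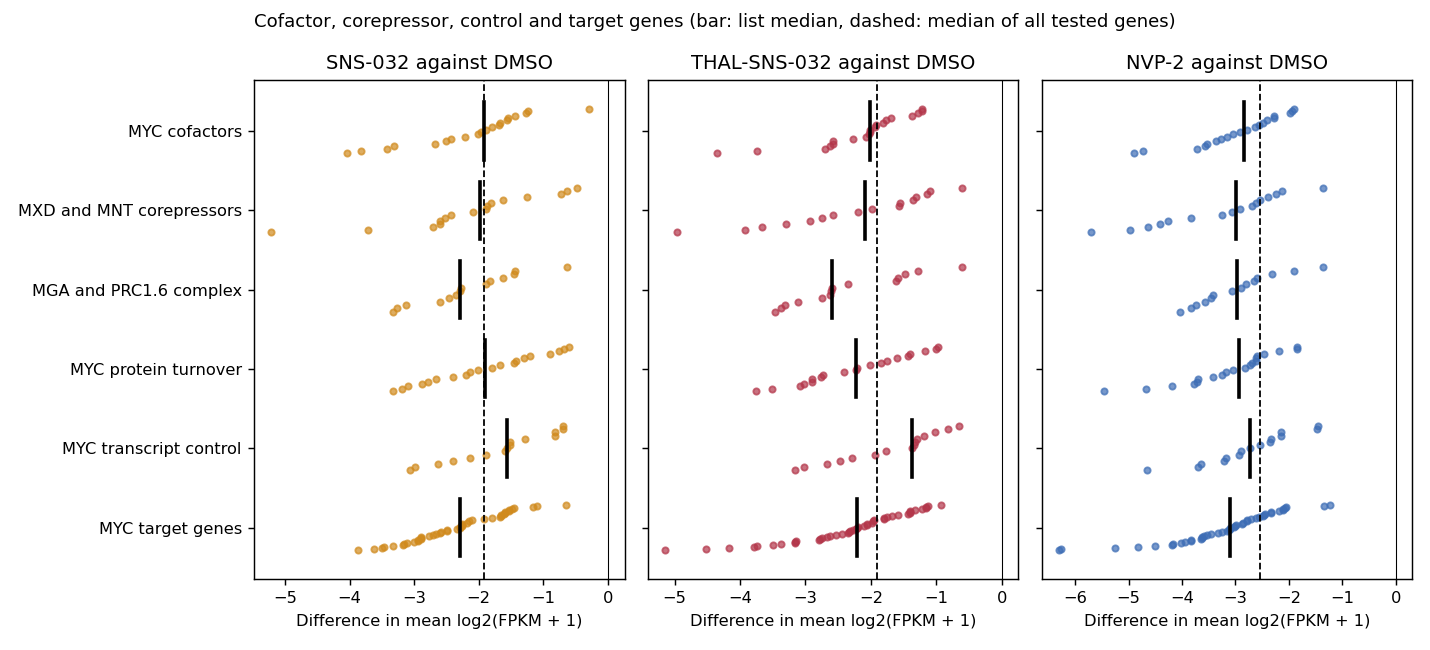
Difference in mean log2(FPKM + 1) from DMSO for each tested gene of 6 lists, 1 panel per compound, with a bar at the list median and a dashed line at the median of all tested genes. The MYC target medians (-2.29 under SNS-032, -2.21 under THAL-SNS-032 and -3.10 under NVP-2) lie left of the dashed lines (-1.92 under SNS-032, -1.90 under THAL-SNS-032 and -2.54 under NVP-2), and on centred libraries some of the 45 targets were higher (15 under SNS-032, 21 under THAL-SNS-032 and 17 under NVP-2).

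The genes whose 3 differences from DMSO were most like those of MYC, by Euclidean distance among 10527 named tested genes, were MRPL44 (distance 0.374), HES1 (0.430), FAM103A1 (0.450), CSTF1 (0.516) and RSRC2 (0.538). HES1, a NOTCH1 target, stood at -1.34 under SNS-032, -4.01 under THAL-SNS-032 and -5.49 under NVP-2. The same measure placed OXSM (0.0326) and RAB21 (0.0952) next to MAX, and CHCHD10 (0.109) and PDF (0.183) next to MLX. MXD1 had GPR3 (0.350) and ARRDC4 (0.392) as its nearest genes. The nearest 2 genes were closer for MXD3 (PNN and CXXC1), MXD4 (FUT11 and TBC1D13), MXI1 (MGC16142 and PTPRE), MNT (CREB3L2 and BCR) and MGA (YY1AP1 and FAM220A), at 0.0361 to 0.0996. The DMSO libraries and the shift of whole libraries enter every one of these distances.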

How the data were processed

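The deposited table holds FPKM per gene and library. Per the submitters' processing notes, HISAT, Cufflinks 2.0.0 and the build hg19 were used, and the annotation, the scaling between libraries and the part the spike-ins played are not given in the sources used here. Depth and counting error are unknown.

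The 92 ERCC entries were removed and, of 2 repeated symbols, the row with the lower mean. Values were used as log2(FPKM + 1), which understates changes of low genes, without further normalization, for the 11381 genes averaging at least 1 FPKM. The limits of 2-fold and 1.5-fold for intervals apply to FPKM + 1. One limma 3.58.1 fit with trend (R 4.3.3) over the 12 libraries, leaving 8 residual degrees of freedom, covered 6 comparisons (two-sided), and a Benjamini-Hochberg adjusted p under 0.05 was called. Lists were described by counts and medians, with no test. All 9 members are named. From each list the most abundant gene and up to 3 called genes with the largest difference in a comparison could be named, besides the nearest 5 genes of MYC and the nearest 2 of each other member, short RNAs and unnamed loci left out. Genes outside this rule are MYCN, MYCL1, MLXIPL, PVT1, PRELID1, PSMC3IP, CHURC1-FNTB, FNTB, ASPRV1 and MIR4800, named as relatives or neighbours, and the markers PAX5, MS4A1, CD79A and CD79B. The printed genes were picked from these after values were seen. A gene of the cofactor list is not reported here by name. Members and lists were chosen with earlier results of these data known.

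Alternatives changed 1 choice at a time: pseudocounts (0.1 and 5), the filter (none, and a mean of at least 5 FPKM), libraries centred on their medians, an equal median spike-in ratio, no trend, a replicate block, the 6 libraries of a pair, adjustment over all 6 comparisons, an interval of 1.5-fold, and each library left out, where the pooled spread of all groups serves a group of 2. The fit was tested on simulated data for SNS-032 against DMSO, with changes set in genes that were not at low levels. It recovered 20.6% of 1.5-fold, 83.6% of 2-fold and 98.5% of 4-fold changes, with 5 false calls. Noise was drawn for each gene separately, without a shift of a whole library such as that of SNS-032 replicate 1. Changes near 1.5-fold are therefore often missed. Promoter stretches are from RefSeq (GRCh38.p14). Figures used matplotlib 3.10.9 in Python 3.11.15.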

Additional observations from a re-analysis of the deposited data

How the results depend on the processing

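Against DMSO every member kept its direction and its side of the threshold in all 558 values under alternatives other than centring. Between compounds 524 of 558 did. Part of these values could not change direction. Dropping the trend, changing the filter or adjustment, or leaving out a library of a group outside the comparison keeps the difference and alters only its p-value. The spike-in alternative moved libraries by at most 0.058 on the log2 scale. Centring, which makes library medians equal by construction, changed the most, and the median tested gene was then at 0.25 under SNS-032, 0.36 under THAL-SNS-032 and 0.42 under NVP-2. It gave 3 lower and 6 higher members under SNS-032 (31.1% and 52.6% of tested genes), 4 and 5 under THAL-SNS-032 (29.2% and 57.2%), and 4 and 5 under NVP-2 (28.1% and 59.7%). It gave 2 higher for THAL-SNS-032 against SNS-032 (51.2% of tested genes). For THAL-SNS-032 against NVP-2 it gave 4 lower and 3 higher (38.0% and 29.4%), with 9 within 2-fold. For SNS-032 against NVP-2 it gave 1 lower and 3 higher (58.9% and 24.8%), with 7 within 2-fold. Reversed by it under SNS-032 were MYC (0.96), MXD3 (0.51), MXD4 (0.62), MXI1 (1.16) and MNT (0.32). Under THAL-SNS-032 MXD1 (1.45), MXD3 (0.56), MXD4 (0.43), MXI1 (1.18) and MNT (0.45) reversed, and under NVP-2 MXD1 (1.97), MXD3 (0.50), MXD4 (0.59), MXI1 (1.20) and MNT (0.82). For MXD1 with both compounds and MXI1 under NVP-2 the positive sign was fixed in advance by low levels in DMSO. For THAL-SNS-032 against SNS-032 MXD3 (0.054) and MXI1 (0.024) did, for THAL-SNS-032 against NVP-2 MXD1 (-0.53), MXD4 (-0.17), MXI1 (-0.013), MNT (-0.37) and MGA (-0.45), and for SNS-032 against NVP-2 MXI1 (-0.037), MNT (-0.50), MGA (-0.027) and MLX (-0.064).

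A mean of 5 FPKM, under which fewer genes are tested, left 0 higher members under SNS-032, 2 lower for THAL-SNS-032 against SNS-032, and 2 and 0 within 2-fold against NVP-2 for THAL-SNS-032 and SNS-032. A pseudocount of 5, which draws low values together, gave 7 within 2-fold in each of these last comparisons. An interval of 1.5-fold, which is narrower, held 3, 1 and 0 members in the 3 pairs of compounds. Apart from the called shares under centring, shares of all tested genes were not computed under the alternatives. Such counts therefore describe the members alone, and whether other genes moved alike was not tested. MLX was called higher under THAL-SNS-032 than under SNS-032, as 1 member, with an equal median spike-in ratio, with a replicate block, and with adjustment over all 6 comparisons, and the cause was not tested. Adding 1 to each value moved the log2 ratio of MYC to its 6 antagonists to 1.54 under SNS-032, -1.42 under THAL-SNS-032 and -1.84 under NVP-2, beside 1.73, -1.28 and -1.68 for these groups without it.

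Leaving out 1 library gave 0 to 1 members higher and 3 to 5 lower for THAL-SNS-032 against SNS-032, 5 to 8 higher for THAL-SNS-032 against NVP-2, and 1 to 4 within 2-fold for SNS-032 against NVP-2. In that first comparison MXD3 ranged from -0.27 to 0.10, MXI1 from -0.22 to 0.060 and MNT from -0.15 to 0.19. The log2 ratio of MYC to MAX under THAL-SNS-032 ranged from -0.10 to 0.025.

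The same replicate numbers recur in each group, but in no comparison did all 3 same-numbered pairs deviate together (correlations of -0.15 to 0.17 over genes). A replicate block changed 2 member calls, which then passed: MLX between THAL-SNS-032 and SNS-032 (0.51, adjusted p = 0.0277, limma) and MNT between THAL-SNS-032 and NVP-2 (0.33, adjusted p = 0.0446, limma). It changed no other member call. Of 1848 list counts under alternatives, 133 moved by over 1.5 times, 69 of them under centring. With 3 libraries a group and no counts, the data cannot bound counting error for genes near 1 FPKM.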

Other observations

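Several network genes overlap other genes in RefSeq, and their values are given here for the reading of the network genes. MAX overlaps the readthrough gene CHURC1-FNTB, at 6.92 ± 1.99 FPKM under SNS-032, 3.66 ± 0.533 FPKM under THAL-SNS-032 and 2.80 ± 0.0540 FPKM under NVP-2, against 18.7 ± 0.832 FPKM in DMSO. It also overlaps FNTB, the farnesyltransferase beta subunit gene, at 1.19 ± 0.397 FPKM under SNS-032, 0.440 ± 0.196 FPKM under THAL-SNS-032 and 0.538 ± 0.155 FPKM under NVP-2, against 3.31 ± 0.956 FPKM in DMSO. MLX overlaps PSMC3IP, a meiotic recombination gene, at 15.0 ± 4.53 FPKM under SNS-032, 21.9 ± 1.80 FPKM under THAL-SNS-032 and 12.8 ± 1.31 FPKM under NVP-2, against 53.7 ± 4.16 FPKM in DMSO (SD, n = 3 each). MXD1 overlaps ASPRV1, a skin protease gene, at 0.345 ± 0.130 FPKM under SNS-032, where MXD1 was highest, 2.20 ± 0.254 FPKM under THAL-SNS-032 and 0.254 ± 0.0955 FPKM under NVP-2, against 1.53 ± 0.161 FPKM in DMSO.

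MIR4800, a microRNA gene inside MXD4, had values that do not follow the groups. They were 464, 0.0923 and 957 FPKM under SNS-032, 0.104, 317 and 0.134 FPKM under THAL-SNS-032, and 0.0682, 0.359 and 160 FPKM under NVP-2, against 0.182, 5647 and 0.171 FPKM in DMSO. MXD4 in those DMSO libraries was at 34.0, 36.1 and 40.6 FPKM.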
